A study of Mus musculus with 6 samples.

Results

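Cdh6, Cdh2, Cdh4, Cdh11 and Cdh13 are cadherins that occur in mesenchymal cells. Ctnnb1, Ctnna1 and Ctnnd1 are catenins of the complex at the cytoplasmic tails of classical cadherins. These 8 genes are the ones described here. They were taken by name from the deposited count table, where all 8 were found among 55453 genes, and all 8 were among the 18192 genes that passed the filter on low counts. They were chosen with earlier results of the same comparison known, Cdh6 in particular, so their differences between the genotypes are given as a description, with no test of their own. The samples were aortae of mice with floxed Srf alleles and the Itga8-CreERT2 driver, a tamoxifen-inducible Cre placed at the gene of a smooth muscle integrin. The controls were heterozygous and the experimental mice homozygous for floxed Srf. Mice of both genotypes carried the driver and received 5 daily intraperitoneal doses of 33 mg/kg tamoxifen. Their aortae, from descending arch to renal bifurcations, were removed 10 days later and stripped of adventitia and endothelium. The heterozygous controls can therefore lose their floxed copy in recombined cells, and no source used here gives age, sex or strain. The table holds 3 heterozygous libraries (replicates 1, 2 and 3) and 2 homozygous libraries (replicates 2 and 3), each from 1 aorta. Homozygous replicate 1 was not analysed here, and the series' design text states that a homozygous sample was dropped as an outlier.

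Cadherins are calcium-dependent adhesion proteins that bind cadherins of a neighbouring cell through their extracellular domains. Inside the cell, the tail of a classical cadherin holds beta-catenin (Ctnnb1) and p120-catenin (Ctnnd1), and alpha-catenin (Ctnna1) joins the complex to actin filaments. Beta-catenin is also the transcriptional effector of canonical Wnt signalling, and T-cadherin (Cdh13) lacks a cytoplasmic tail and is held in the membrane by a lipid anchor. Serum response factor, the product of Srf, drives many genes of the smooth muscle contractile apparatus by binding a DNA element called the CArG box.

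Because the mice differ in Srf, the bases upstream of the Cdh6 start are shown with the CArG boxes of Srf itself and of Vcl, the gene of the junction protein vinculin, for comparison. The sequences are RefSeq windows on GRCm38.p6, printed 5′ to 3′ on the strand of each gene. The Cdh6 sequence is the 250 bases before the annotated start at position 13173675 (chr15:13173676-13173925, minus strand), and its capitals mark 2 overlapping matches to GGGCGG. The Srf stretch (chr17:46556205-46556254, minus strand) and the Vcl stretch (chr14:20929161-20929190, plus strand) have their CArG boxes in capitals.
Cdh6: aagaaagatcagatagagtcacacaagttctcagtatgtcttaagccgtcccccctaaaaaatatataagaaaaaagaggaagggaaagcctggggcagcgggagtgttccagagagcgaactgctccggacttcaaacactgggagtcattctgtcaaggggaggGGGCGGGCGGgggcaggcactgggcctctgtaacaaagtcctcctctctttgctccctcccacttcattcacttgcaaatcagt
Srf: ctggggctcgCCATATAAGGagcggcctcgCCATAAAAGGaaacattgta
Vcl: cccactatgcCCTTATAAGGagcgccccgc
A search of both strands found no CArG box in the 250 bases of Cdh6. The box was present in 1.47% of 32851 such upstream windows, and the Srf window held 2 of them and the Vcl window 1. GGGCGG occurred in 32.7% of all windows. Neither GGAATG nor TATAAA was found upstream of Cdh6, against 12.6% and 12.4% of all windows. Of the 8 genes, 3 had a window (Cdh6, Ctnnb1 and Ctnnd1, 5 windows in all), and none of the 5 held a CArG box. A missing match says only that these letters are not in the window.

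Library totals ranged from 26177821 to 34311855 counts. Srf, the targeted gene, stood at 56.1, 64.4 and 68.3 CPM (counts scaled to library size by TMM, edgeR's correction for library composition) in heterozygous replicates 1, 2 and 3, and at 45.0 and 38.6 CPM in homozygous replicates 2 and 3. The homozygous libraries were thus both below all heterozygous ones, in the direction of their labels. The first principal component of log2 CPM held 55.4% of the variance, and heterozygous replicate 3 lay at its end (-36.6), opposite homozygous replicate 3 (30.4). Heterozygous replicates 1 and 2 lay at -2.01 and -7.21 and homozygous replicate 2 at 15.4. Over all genes tested, 18.2% were lower and 17.4% higher in homozygous libraries without overlap. The 8 smooth muscle markers summed to 23676 to 25278 CPM in heterozygous and 13786 to 14287 CPM in homozygous libraries. All 8 were lower without overlap. Markers of skeletal muscle, brown fat, adipocytes and macrophages went the other way, and where in the sample they came from was not tested. Skeletal muscle markers summed to 8.32 to 486 CPM in heterozygous and 855 to 2395 CPM in homozygous libraries (9 of 10 higher without overlap), brown fat markers to 238 to 627 and 945 to 1024 CPM (7 of 8), adipocyte markers to 1718 to 2588 and 3113 to 3298 CPM (6 of 8), and macrophage markers to 269 to 377 and 438 to 580 CPM (7 of 8). Endothelial markers ranged from 730 to 965 and from 400 to 1110 CPM (1 of 8 higher), adventitial fibroblast markers from 1749 to 2417 and from 2413 to 2698 CPM (3 of 8 higher), and Schwann cell markers from 160 to 218 and from 212 to 216 CPM (5 of 8 higher, 1 lower). Pericyte markers (3219 to 4247 and 2796 to 3469 CPM, 1 of 6 lower), cardiomyocyte markers (358 to 541 and 439 to 455 CPM, 2 of 7 higher), mesothelial markers (0.677 to 6.92 and 0.742 to 4.82 CPM, 0 of 6) and erythrocyte markers (37.9 to 297 and 23.9 to 28.9 CPM, 4 of 5 lower) completed the lists. No marker of these lists was at 0 in all 5 libraries. The skeletal muscle sums put the libraries in the same order as the first principal component, and whether they shape it was not tested. What part these other tissues have in the differences below was not tested.

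Cdh6, a type II cadherin also called K-cadherin (GRCm38 chromosome 15, 13028701 to 13173675, minus strand, 9024 exonic bases in 12 blocks), was the only one of the 8 genes with a large difference between the genotypes. It stood at 70.3, 81.3 and 65.8 CPM in heterozygous replicates 1, 2 and 3 and at 29.2 and 36.9 CPM in homozygous replicates 2 and 3. The 2 homozygous libraries were both far below the lowest heterozygous one. These values come from 826 to 2740 counts per library, and no 100-base word of a Cdh6 transcript occurs in transcripts of another gene. The means were 72.5 ± 7.95 CPM (SD, n = 3) and 33.1 ± 5.46 CPM (SD, n = 2), and the homozygous level was 45.6% of the heterozygous one, a log2 fold change of -1.13 (SE 0.143). Of the 11560 genes with a mean of at least 5 CPM, 20 had a lower log2 fold change. With a library left out the value lay between -1.31 (without homozygous replicate 3) and -0.98 (without homozygous replicate 2). In a bulk sample, fewer cells that make a transcript and less of it in each cell cannot be told apart.

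Cdh13, T-cadherin (chromosome 8, 118283733 to 119324921, plus strand), was the most abundant of the 5 cadherins. Heterozygous libraries held 310, 295 and 271 CPM and homozygous libraries 237 and 261 CPM. All 5 values lay close together, with the homozygous pair just below the lowest heterozygous library. Its log2 fold change was -0.23 (SE 0.104), which left 85.2% of the heterozygous level. In raw counts, where library scaling plays no part, the controls had 22.7, 27.5 and 24.3 Cdh6 counts per 100 Cdh13 counts and the homozygous pair 12.3 and 14.2. Cdh6 was thus also lower relative to the other main cadherin of the set.

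Cdh11, OB-cadherin, a type II cadherin of fibroblasts and osteoblasts (chromosome 8, 102632095 to 102785642, minus strand), had overlapping groups. Its levels were 35.6, 31.8 and 18.1 CPM in heterozygous and 25.6 and 33.9 CPM in homozygous libraries. Heterozygous replicate 3 was the lowest of the 5, the controls varied widely (coefficient of variation 32.2%), and the log2 fold change of 0.06 (SE 0.275) was within that spread. The summed adventitial fibroblast markers were also lowest in heterozygous replicate 3 (1749 CPM). They stood at 2417 and 2052 CPM in heterozygous replicates 1 and 2 and at 2413 and 2698 CPM in homozygous replicates 2 and 3. Of these markers, Pi16 and Ly6a alone were not lowest in heterozygous replicate 3. Sums of Schwann cell, skeletal muscle and brown fat markers were lowest there too (160, 8.32 and 238 CPM). The part of fibroblast RNA in the Cdh11 values was not tested. Leaving out heterozygous replicate 3 gave -0.16, as did leaving out homozygous replicate 3, both opposite in sign.

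The classical type I cadherins of the set were rare in these aortae. Cdh2, N-cadherin, on chromosome 18, stood at 4.34, 9.40 and 6.09 CPM in heterozygous and 9.44 and 7.25 CPM in homozygous libraries. Its groups overlapped, heterozygous replicate 2 was as high as homozygous replicate 2, and the log2 fold change of 0.33 (SE 0.314) rested on 141 to 317 counts per library. Leaving out 1 library gave 0.70 (heterozygous replicate 2), 0.51 (homozygous replicate 3), 0.29 (heterozygous replicate 3), 0.13 (homozygous replicate 2) or 0.10 (heterozygous replicate 1). Cdh4, R-cadherin (chromosome 2, 179442431 to 179899373, plus strand), stood at 4.98, 4.30 and 4.30 CPM in heterozygous and 4.77 and 4.02 CPM in homozygous libraries. Its levels were low and much alike in all libraries, with 108 to 162 counts each and a log2 fold change of -0.04 (SE 0.179).

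**Figure D1:**
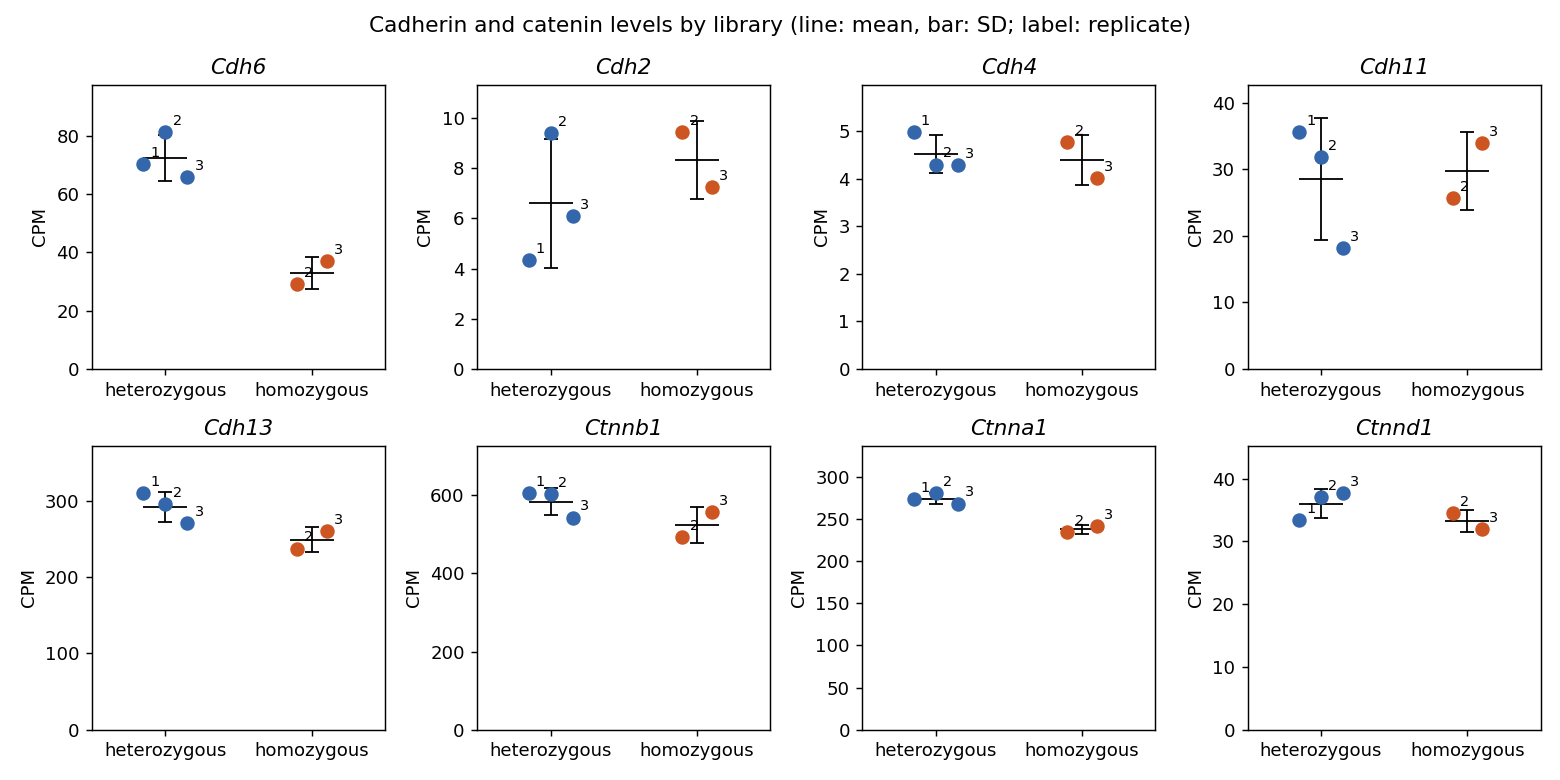
Level of each of the 8 genes in CPM (counts scaled to library size, vertical axes from 0), with 1 point per library (blue heterozygous, orange homozygous, numbered by replicate), horizontal lines for group means and bars for the SD (n = 3 and n = 2). Cdh6 falls into separate ranges, 65.8 to 81.3 and 29.2 to 36.9 CPM, while Cdh2, Cdh4, Cdh11, Ctnnb1 and Ctnnd1 overlap and Cdh13 and Ctnna1 are lower by a small margin.

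Among the catenins, Ctnnb1 (chromosome 9, 120929216 to 120960507, plus strand) was the most abundant. It stood at 606, 603 and 543 CPM in heterozygous and 492 and 557 CPM in homozygous libraries. The groups overlapped through heterozygous replicate 3 and homozygous replicate 3, and the log2 fold change was -0.15 (SE 0.109), between -0.24 and -0.071 with a library left out. Ulk4, on the opposite strand, shares 10.0% of the 100-base words of Ctnnb1 and had 219 to 258 counts, against 13651 to 20332 for Ctnnb1.

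Ctnna1, alpha-catenin, on chromosome 18, varied least among controls, with a coefficient of variation of 2.32%. It stood at 274, 281 and 268 CPM in heterozygous and 234 and 241 CPM in homozygous libraries. The groups did not overlap, and the log2 fold change was -0.21 (SE 0.0882), 86.6% of the heterozygous level. Lrrtm2, which lies on the opposite strand within Ctnna1, had at most 1 count in a library. Both partners kept a similar proportion: the controls had 45.3, 46.6 and 49.4 Ctnna1 counts per 100 Ctnnb1 counts, and the homozygous pair had 47.6 and 43.4, overlapping ranges.

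Ctnnd1, p120-catenin (chromosome 2, 84600071 to 84650765, minus strand), stood at 33.4, 37.0 and 37.7 CPM in heterozygous and 34.5 and 32.0 CPM in homozygous libraries. The groups overlapped (log2 fold change -0.11, SE 0.0991). GENCODE also lists Gm28635, a gene on the same strand that overlaps Ctnnd1 and shares 52.4% of its 100-base words. The deposited table has 0 counts for Gm28635 in all 5 libraries. No source used here says how reads in both genes were counted, so the level of Ctnnd1 is uncertain and is not comparable with those of the other genes.

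Over the 8 genes, 3 (Cdh6, Cdh13 and Ctnna1) were lower in homozygous libraries without overlap and 0 were higher, where 18.2% and 17.4% of all genes tested were lower or higher without overlap. The median log2 fold change was -0.13, and -0.02 over all genes tested. edgeR's quasi-likelihood test called 0 of the 8 genes at an adjusted p under 0.05, in either direction, and 0.0% of all genes. At an unadjusted p under 0.05 it had 1644 of all genes higher and 1228 lower. Of the 8, edgeR called Cdh6, lower, when the low-count filter was omitted (1.42% of genes called lower and 3.23% higher) and when heterozygous replicate 2 was left out (0.0504% lower and 0.779% higher). DESeq2 called 1 of the 8, Cdh6, where it called 2.73% of 15177 genes lower and 3.49% higher, and limma-voom called 0 of the 8, with 1 gene (0.0055%) lower in all. Since the genes were chosen on this comparison, these counts are no evidence about them.

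Levels of different genes can be compared per length of exon. In heterozygous libraries the order, in CPM per kb of exon, was Ctnnb1 at 112 ± 6.82 (SD, n = 3), Ctnna1 at 42.7 ± 0.991, Cdh13 at 26.0 ± 1.78, Cdh6 at 8.03 ± 0.880, Cdh11 at 3.20 ± 1.03, Cdh2 at 0.819 ± 0.319 and Cdh4 at 0.624 ± 0.0544. Cdh2 and Cdh4 did not differ beyond their spread. In homozygous libraries Cdh6 stood at 3.24 and 4.09 CPM per kb and Cdh11 at 2.88 and 3.81 CPM per kb. These neighbours, well apart in heterozygous libraries (7.29 to 9.004 against 2.04 to 3.996), thus had overlapping ranges in homozygous ones. Within each library Cdh6 stayed the higher, with 198, 256 and 363 counts per 100 Cdh11 counts in controls and 114 and 109 in the homozygous pair.

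The share of Cdh6 in the cadherin transcripts was correspondingly smaller. It was computed from CPM per kb over 20 cadherins, the 5 above, with the tailless Cdh13 among them, and 15 classical ones. Cdh6 made up 12.7%, 13.9% and 14.0% of the sum in controls and 5.67% and 8.03% in the homozygous pair, ranges that did not overlap. Cdh13 held 44.0% ± 3.05 (SD, n = 3) and 41.3% ± 6.04 (SD, n = 2), the largest share in all 5 libraries. Cdh5, the cadherin of endothelial cells, came next with 20.7% to 26.3% in heterozygous libraries and 35.5% and 22.9% in homozygous replicates 2 and 3. The transcript of an endothelial cadherin was thus found in all stripped aortae, and the summed endothelial markers, which include Cdh5, were highest in homozygous replicate 2 (1110 CPM) and lowest in homozygous replicate 3 (400 CPM). Cdh5 itself was also highest in homozygous replicate 2 (85.3 CPM) but lowest in heterozygous replicate 3 (45.2 CPM). Kdr, Emcn and Cldn5 were lowest there too, while Vwf (96.0 CPM), Pecam1 (115 CPM), Tek and Egfl7 were lowest in homozygous replicate 3. The total over the 20 genes was 61.1, 64.9 and 52.0 CPM per kb in heterozygous and 57.1 and 50.9 in homozygous libraries, with overlapping groups.

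**Figure D2:**
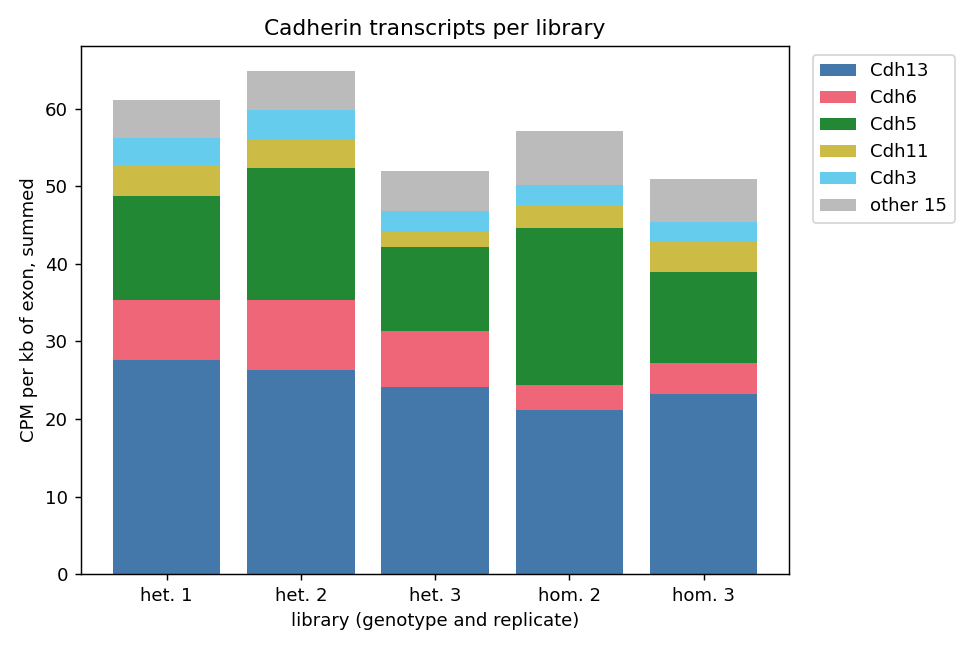
Stacked bars of cadherin levels in each library, in CPM per kb of exon on an axis from 0, with the 5 most abundant cadherins in colour and the other 15 in grey. Cdh13 is the largest part of each bar, and the Cdh6 part is 7.29 to 9.004 CPM per kb in heterozygous and 3.24 and 4.09 in homozygous libraries.

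The genes nearest to Cdh6 in their pattern over the libraries included 2 smooth muscle actins. Likeness was measured as the root mean square difference between centred log2(CPM + 0.5) values over the 5 libraries, so that a small value means a similar pattern. The closest of 11559 candidate genes with a mean of at least 5 CPM were Bves (0.130), a Popeye domain membrane protein, Actg2 (0.150), the enteric smooth muscle actin, Acta2 (0.162), smooth muscle actin, Tspan2 (0.163), a tetraspanin, and Tagln (0.169), transgelin, 48.3% of whose 100-base words occur in transcripts of other genes. Bves stood at 23.9, 28.7 and 24.4 CPM in heterozygous and 12.8 and 13.6 CPM in homozygous libraries. Like Cdh6, it was highest in heterozygous replicate 2 and lowest in homozygous replicate 2. Myh11, smooth muscle myosin heavy chain, ranked 47 (0.253) and Srf 202 (0.346), while among the 7 other genes the nearest was Cdh13 at rank 1037 (0.452) and the furthest Cdh2 (0.807). A difference between the genotypes enters this measure, so it restates in part the values above.

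**Figure D3:**
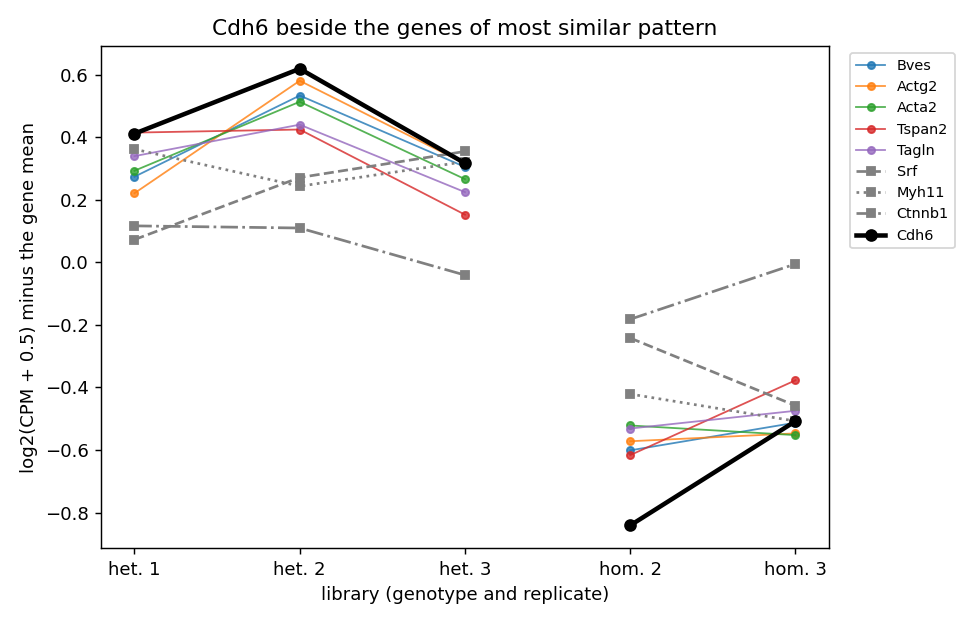
Centred log2(CPM + 0.5) of Cdh6 (black), the 5 genes nearest to it (colours) and Srf, Myh11 and Ctnnb1 (grey) in each library, with lines joining libraries of 1 genotype. Cdh6 and its neighbours are above 0 in the 3 heterozygous and below 0 in the 2 homozygous libraries, and Cdh6 in homozygous replicate 2 is the lowest point.

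Set against a smooth muscle transcript, Cdh6 was lower by a smaller margin than in CPM, and the other abundant genes were higher. Per 1000 Myh11 counts the controls had 7.45, 9.34 and 7.17 Cdh6 counts and the homozygous pair 5.32 and 7.15, so the groups did not overlap, with homozygous replicate 3 just below the lowest control. The same ratio for Cdh13 was 32.9, 34.0 and 29.5 in controls against 43.3 and 50.4. For Ctnna1 it was 29.0, 32.3 and 29.2 against 42.7 and 46.7. For Ctnnb1 it was 64.2, 69.3 and 59.2 against 89.8 and 108. Myh11 itself stood at 9439, 8695 and 9181 CPM in heterozygous and 5484 and 5165 CPM in homozygous libraries, so these ratios show unequal change and not that any of the genes was constant.

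The other genes of cadherin adhesion were examined in 6 lists with 98 genes, of which 80 were tested. edgeR called 0 of the 80 after adjustment over all genes (lowest adjusted p = 0.104). At an unadjusted p under 0.05 it had 8 higher and 8 lower, where 1644 of all 18192 genes tested were higher and 1228 lower. No gene of the 80 was called by limma-voom. DESeq2 called 5 lower and 2 higher, against 2.73% and 3.49% of all genes with a DESeq2 adjusted p. The median log2 fold change of the 80 was 0.03, against -0.02 over all genes tested. These values over all genes are the background for each list below. The lists, like the 8 genes, were chosen with earlier results of these data known, so their counts are no evidence about them.

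The list of adherens junction partners held most of these DESeq2 calls. Of its 19 genes, all tested, edgeR called 0 (5 lower and 1 higher at an unadjusted p under 0.05) and DESeq2 called 3 lower and 1 higher. Without overlap 8 were lower (42.1%) and 1 higher (5.26%), where the shares over all genes tested were 18.2% and 17.4%. This list was chosen with earlier results of these data known, so its counts are no evidence about it. Vcl, vinculin, which links alpha-catenin to actin, stood at 1116, 1222 and 1306 CPM in heterozygous and 796 and 743 CPM in homozygous libraries, a log2 fold change of -0.66 (SE 0.114). Its groups were well apart, though 24.7% of its 100-base words occur in transcripts of another gene. Tmem47, a junction membrane protein, had a log2 fold change of -0.64 (SE 0.108), from 174 to 192 CPM to 109 and 127 CPM, and Iqgap1, a scaffold that binds actin, cadherin and beta-catenin, one of -0.44 (SE 0.0979). Nectin2, an adhesion protein of the immunoglobulin family, was at 11.1, 15.9 and 11.7 CPM in heterozygous and 23.0 and 19.2 CPM in homozygous libraries (0.71, SE 0.177). Shroom3, a regulator of junctional actomyosin, had a log2 fold change of -0.75 (SE 0.257) with controls spread from 96.5 to 186 CPM, and was not called by DESeq2. Its value was -0.44 without heterozygous replicate 3, the highest control. Of its 100-base words, 23.3% occur in transcripts of another gene, as do 8.84% of those of Tmem47.

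The other classical cadherins gave no call. Of 15 genes, 9 were tested, with a median log2 fold change of 0.23, and edgeR (1 higher at an unadjusted p under 0.05), limma-voom and DESeq2 called 0. Cdh19, a cadherin of Schwann cells, stood at 5.996, 6.67 and 4.22 CPM in heterozygous and 9.58 and 7.77 CPM in homozygous libraries (0.62, SE 0.220). It was higher without overlap, as were 5 of the 8 Schwann cell markers, a list that includes Cdh19 itself, while 1 was lower. Over all genes tested, 17.4% were higher without overlap. The summed Schwann cell markers overlapped (160 to 218 CPM in heterozygous and 212 to 216 CPM in homozygous libraries). Pmp22 made up most of each sum, at 155, 138 and 116 CPM in heterozygous and 141 and 149 CPM in homozygous libraries. The overlap of the sums thus says little of the other Schwann cell markers. The part of nerve RNA was not tested. Cdh3, P-cadherin, had overlapping groups (-0.36, SE 0.179, and -0.21 without heterozygous replicate 2), as did Cdh5 (0.22, SE 0.264), whose sign turned without homozygous replicate 2 (-0.24).

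Other catenins were mostly close in level between the genotypes. Of 11 genes, 8 were tested, with a median log2 fold change of 0.04. edgeR called 0 (1 lower at an unadjusted p under 0.05), limma-voom 0 and DESeq2 1, Pkp4. Pkp4, a p120-related protein of junctions, stood at 381, 349 and 323 CPM in heterozygous and 252 and 280 CPM in homozygous libraries (-0.40, SE 0.112), below all controls. Ctnna3, an alpha-catenin of muscle, gave -0.30 (SE 0.147), with 131 CPM in heterozygous replicate 3 against 100 and 97.9 CPM in the other controls and 84.8 and 93.1 CPM in homozygous libraries. Without that control the value was -0.14. Jup, plakoglobin, gave 0.07 (SE 0.182).

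Among protocadherins and large cadherins, the 3 most abundant genes, Fat1, Pcdh7 and Fat4, were each lower without overlap. Of 31 genes, 26 were tested, with a median log2 fold change of 0.25. Without overlap 6 were lower (23.1%) and 10 higher (38.5%), against 18.2% and 17.4% of all genes tested. edgeR called 0 (2 lower and 4 higher at an unadjusted p under 0.05) and limma-voom 0. DESeq2 called 1 lower and 1 higher, against 2.73% and 3.49% of all genes with a DESeq2 adjusted p. Pcdh7, a protocadherin, stood at 1615, 1558 and 1702 CPM in heterozygous and 1151 and 1132 CPM in homozygous libraries (-0.51, SE 0.103), with 19.8% of its words shared with another gene. Clstn3, a calsyntenin with cadherin repeats, was at 22.2, 32.4 and 17.6 CPM in heterozygous and 49.8 and 44.0 CPM in homozygous libraries (0.96, SE 0.232). The brown fat markers stood in the same order of libraries among the controls, at 320, 627 and 238 CPM, with 1024 and 945 CPM in the homozygous pair, and their part in the Clstn3 values was not tested. Fat1 gave -0.20 (SE 0.108), Fat4 -0.38 (SE 0.125) and Clstn2, at under 2 CPM, 0.82 (SE 0.458, and 0.49 without heterozygous replicate 3). Fat4 shares 7.01% of its words with other genes.

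The proteases that cleave cadherins and the feedback and target genes of Wnt signalling gave no call. All 7 proteases were tested, with a median of -0.07, no gene at an unadjusted p under 0.05 in edgeR and no call by edgeR, limma-voom or DESeq2. Adam10, which sheds the cadherin ectodomain, gave -0.07 (SE 0.111), Furin, a proprotein convertase, -0.13 (SE 0.0949) and Adam15 -0.13 (SE 0.0942). Of 15 Wnt genes, 11 were tested, with a median of 0.04, and edgeR (2 higher at an unadjusted p under 0.05), limma-voom and DESeq2 called 0. Without overlap 3 were higher (27.3%) and 1 lower (9.09%), against 17.4% and 18.2% of all genes tested. Nkd1, a feedback inhibitor of Wnt signalling, gave -0.21 (SE 0.0931), Znrf3, a ligase that removes Wnt receptors, -0.11 (SE 0.102), Nkd2 0.26 (SE 0.189) and Ccnd1, cyclin D1, 0.31 (SE 0.120). Dkk3, a secreted Dickkopf family protein, stood at 402, 338 and 263 CPM in heterozygous and 300 and 386 CPM in homozygous libraries, with overlapping groups.

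**Figure D4:**
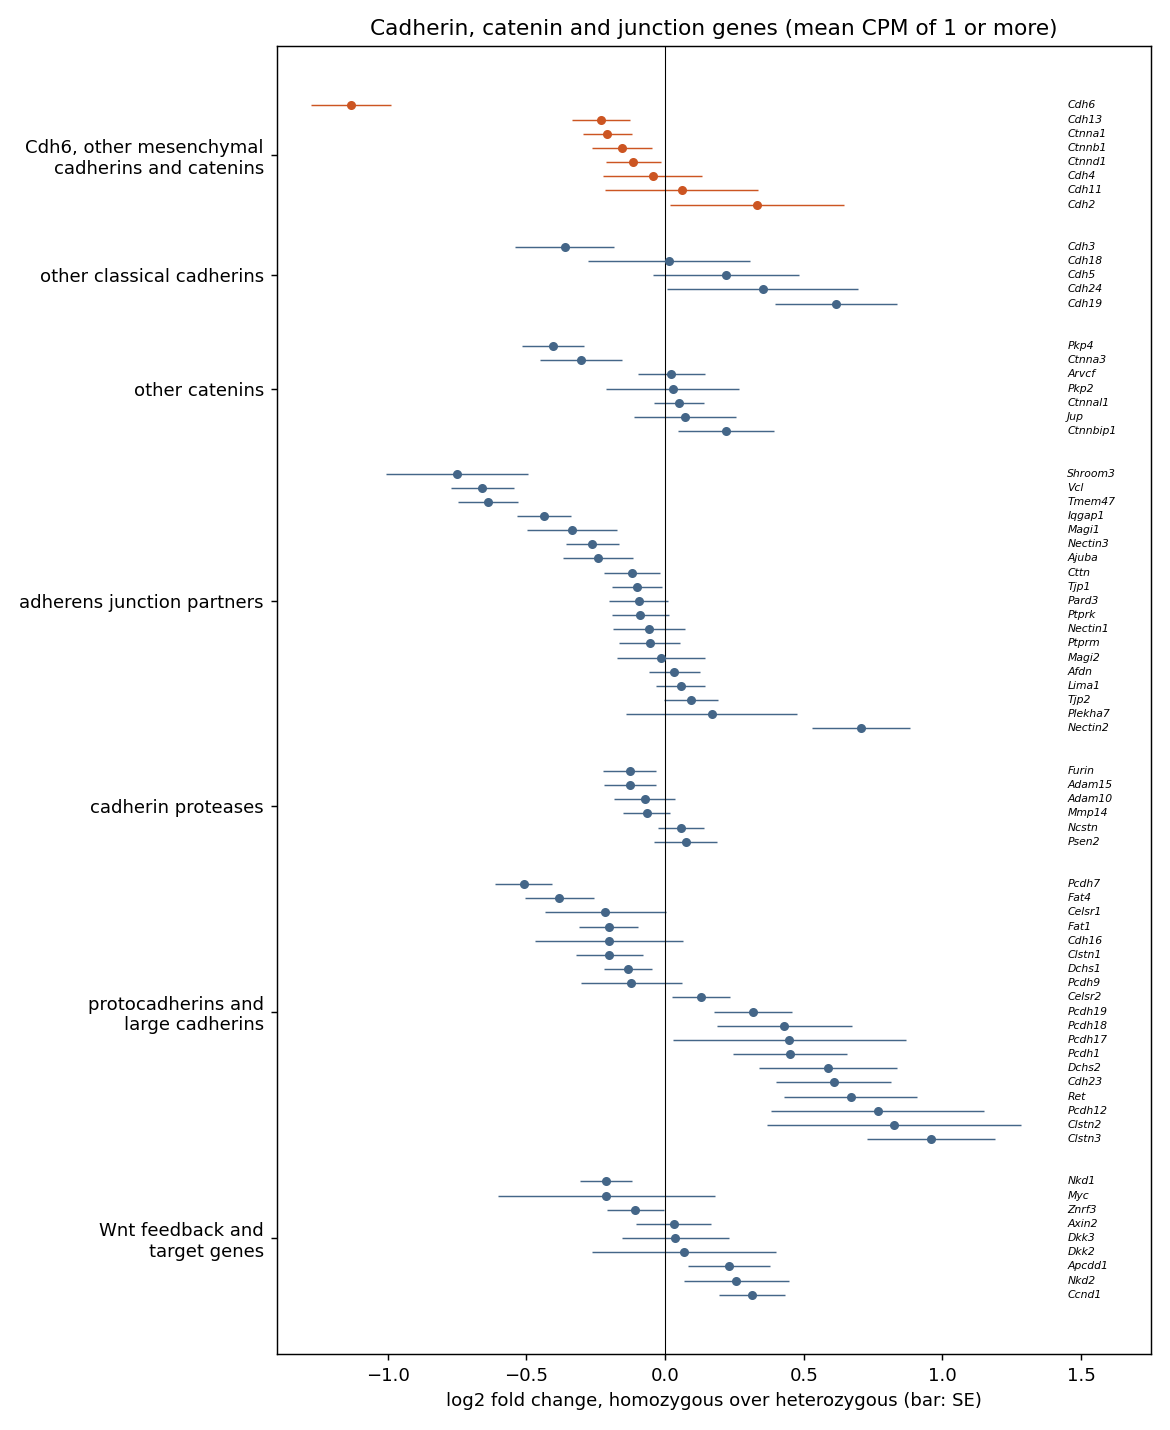
Log2 fold change of homozygous over heterozygous libraries (horizontal axis) with its SE for the 8 genes (orange) and the tested genes of the 6 lists with a mean of at least 1 CPM (blue), named at the right, 1 protease left out. Cdh6, at -1.13, lies left of all other genes drawn, and the other 7 lie between -0.23 and 0.33.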

How the data were processed

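Per the labels' protocols, poly(A) libraries were made with a stranded Illumina kit from individually frozen aortae. The submitters' processing notes name GRCm38, featureCounts (Subread 1.6.4), STAR 2.7.0f and fastp 0.20.0. No source used here gives the annotation or the strand setting, so opposite-strand genes may not have been told apart. The deposited values are raw whole-number counts per gene for 5 libraries.

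Genes were filtered with filterByExpr, scaled by TMM and tested on genotype with the quasi-likelihood F test of edgeR 4.0.16 in R 4.3.3, with Benjamini-Hochberg adjustment over 18192 genes and a threshold of 0.05. SE is the log2 fold change over the root of F. The fit was tested on simulated data. All pairs of libraries differed by more than sampling noise, and p-values reflect only the spread among the 5 aortae. DESeq2 1.42.0, limma 3.58.1 (voom), other scalings and filters, a replicate block and each library left out were alternatives. Coordinates and exon lengths are from GENCODE M21 (GRCm38), and the upstream windows are from RefSeq.

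The 8 genes and all lists were chosen with earlier results of these data known. Beside the 8 genes and Srf, the rule named the 3 most abundant genes and the 2 largest changes (mean of at least 1 CPM) of each list, the most abundant marker of each cell type and the 5 genes nearest to Cdh6. The counts for the protease list include 1 gene whose own values are not reported here.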

Additional observations from a re-analysis of the deposited data

How the results depend on the processing

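The Cdh6 log2 fold change lay between -1.31 and -0.98 with a library left out and between -1.15 and -1.11 in the other alternatives. Ctnna1 ranged from -0.23 to -0.17, Cdh4 from -0.17 to 0.077, Cdh13 from -0.30 to -0.17 and Cdh11 from -0.16 to 0.25 with a library left out. Cdh4 was also positive with the replicate block. Cdh5 ranged from -0.24 to 0.57, Jup from -0.073 to 0.21, Adam10 from -0.18 to 0.028, Dkk3 from -0.16 to 0.21, and the markers Vwf from -1.80 to 0.48, Ryr2 from -0.11 to 0.22, Pmp22 from -0.0030 to 0.19, Msln from -4.18 to 0.00025 and Rgs5 from -0.81 to 0.05. Ryr2 was -0.093 with the replicate block and with the crossed pairing. The cause of these changes of sign was not tested. A left-out homozygous library leaves 1, which is assumed to vary like the others.

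edgeR called 0 genes in either direction. Higher and lower calls were 529 and 414 by DESeq2, 982 and 432 by edgeR without the low-count filter, 0 and 1 by limma-voom, and 3 and 2 by edgeR with the replicate block. With a library left out there were 0 to 139 genes higher and 0 to 9 lower. The 139 and 9 came when heterozygous replicate 2 was omitted, and omitting homozygous replicate 3 gave 1 higher. The replicate numbers share no stated source, and deviations of libraries with the same number correlated at -0.038 and -0.26. A crossed pairing, chosen after seeing the data, called 0. Cdh2 and Cdh4, with 108 to 317 counts per library, have the lowest depth of the 8 genes.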
